A study of Mus musculus with 24 samples.

Results

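The genes described here encode the enzymes that build purines, pyrimidines and the deoxynucleotides of DNA in mouse leukaemia cells. They are the 32 rows of the deposited count table whose gene name is on a list of such enzymes, out of 53465 genes in the table. The list was drawn up by function and holds 2 PRPP synthetases, 6 enzymes of the purine route up to inosine monophosphate (IMP), 4 that turn IMP into AMP and GMP, 5 of the pyrimidine route, 3 for salvage of bases and nucleosides, 3 for salvage of deoxynucleosides, 6 for deoxynucleotide synthesis and 3 nucleotide kinases. All 32 passed the filter on low counts and were tested.

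RNA came from RN2 cells, a cultured acute myeloid leukaemia line of mouse with the genotype Mll-Af9; NrasG12D. The cells carried a retroviral hairpin that doxycycline switches on. The groups were shRen713, the control hairpin (clones 2 and 7), shOgdh346 (clones 1 and 5) and shOgdh2081 (clones 3 and 5), the latter pair directed against Ogdh, each at day 0 without doxycycline and at day 4 with it. Each clone is a clonal isolate of 1 line, each clone and day has 2 libraries, and the 24 libraries form 6 groups of 4. All groups share the Mll-Af9 fusion, the mutant Nras and a hairpin vector, and the control cells also received doxycycline at day 4. All values describe these clones, and nothing in the labels says that the 2 libraries of a clone and day came from separate cultures.

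Cells make purines by assembling the ring on phosphoribosyl pyrophosphate (PRPP), in steps that use glutamine, glycine, aspartate and folate-bound carbon units, and arrive at IMP. Pyrimidines are made the other way round: the ring is built first, from glutamine and aspartate, and then joined to PRPP. Salvage enzymes spare this work by re-using bases and nucleosides. Ribonucleotide reductase turns ribonucleotides into deoxynucleotides, and together with thymidylate synthase it sets the supply for DNA replication, so many of these enzymes are most abundant in S phase. Dividing leukaemia cells depend on both de novo routes, and several of these enzymes are targets of antimetabolite drugs.

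Total counts per library ran from 7209186 to 20705468. Levels are given as CPM, counts scaled to the size of the library. Ogdh stood at 206, 206, 237 and 253 CPM in the day 4 control libraries, at 35.0, 34.9, 52.8 and 58.0 CPM with shOgdh346 and at 68.5, 70.9, 32.3 and 37.8 CPM with shOgdh2081. The Ogdh hairpins thus lay below the control in every day 4 library, with p = 0.0667 in a two-sided exact permutation test over clones, the smallest p that 4 clones against 2 allow. At day 0 the difference in Ogdh was -65.2 CPM (p = 0.2, exact permutation test). The myeloid progenitor genes Kit, Cd34 and Mpo averaged 202, 514 and 1910 CPM over all sums, and the T cell marker Cd3e had no count in any library. The 2 libraries of a clone differed more at day 0 than at day 4: a chi-square statistic per gene was 6.78 to 10.3 for the 6 pairs at day 0 and 1.6 to 2.94 for those at day 4, so both libraries of each pair differed beyond counting noise.

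The central measure is the net change: the log2 change from day 0 to day 4 with the Ogdh hairpins, minus the same change in the control. Averaged over the Ogdh hairpins, 24 of the 32 genes fell and 0 rose, by edgeR's quasi-likelihood test with p adjusted over all 14249 genes tested (Benjamini-Hochberg, threshold 0.05). Over all genes tested, 19.8% fell and 17.9% rose. No member rose at an unadjusted p under 0.05 either, and DESeq2 called 0 higher and 23 lower. The median net change was -0.83 over the 32 genes, with a range from -1.52 for Dctd to 0.30 for Nme2, and -0.00 over all genes tested. With shOgdh346 alone 22 fell (18.4% of all genes), and with shOgdh2081 alone 21 fell (14.2%), and 0 rose with either by edgeR. At an unadjusted p under 0.05, 1 gene rose with shOgdh346 and 0 with shOgdh2081, and DESeq2 called 0 higher with either. In bulk RNA, fewer cells of a kind and less RNA per cell cannot be told apart.

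The size of the net change varied from step to step. The median net change was -0.96 over the 6 purine enzymes up to IMP, all of which fell, -0.92 over the 5 pyrimidine enzymes (4 fell), -0.96 over the 6 deoxynucleotide enzymes (5 fell) and -0.78 over the 2 PRPP synthetases (2 fell). It was -0.77 over the deoxynucleoside kinases (2 of 3 fell), -0.37 over the enzymes that use IMP (2 of 4) and -0.36 over the nucleotide kinases (2 of 3). The value nearest 0 was that of base and nucleoside salvage, at -0.10, where 1 of 3 fell. Differences between steps were not tested. Within single clones the median change of the 32 genes from day 0 to day 4 was -0.13 and -0.13 in the control clones, -1.01 (clone 1) and -0.95 (clone 5) with shOgdh346, and -0.69 (clone 3) and -0.78 (clone 5) with shOgdh2081.

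**Figure D1:**
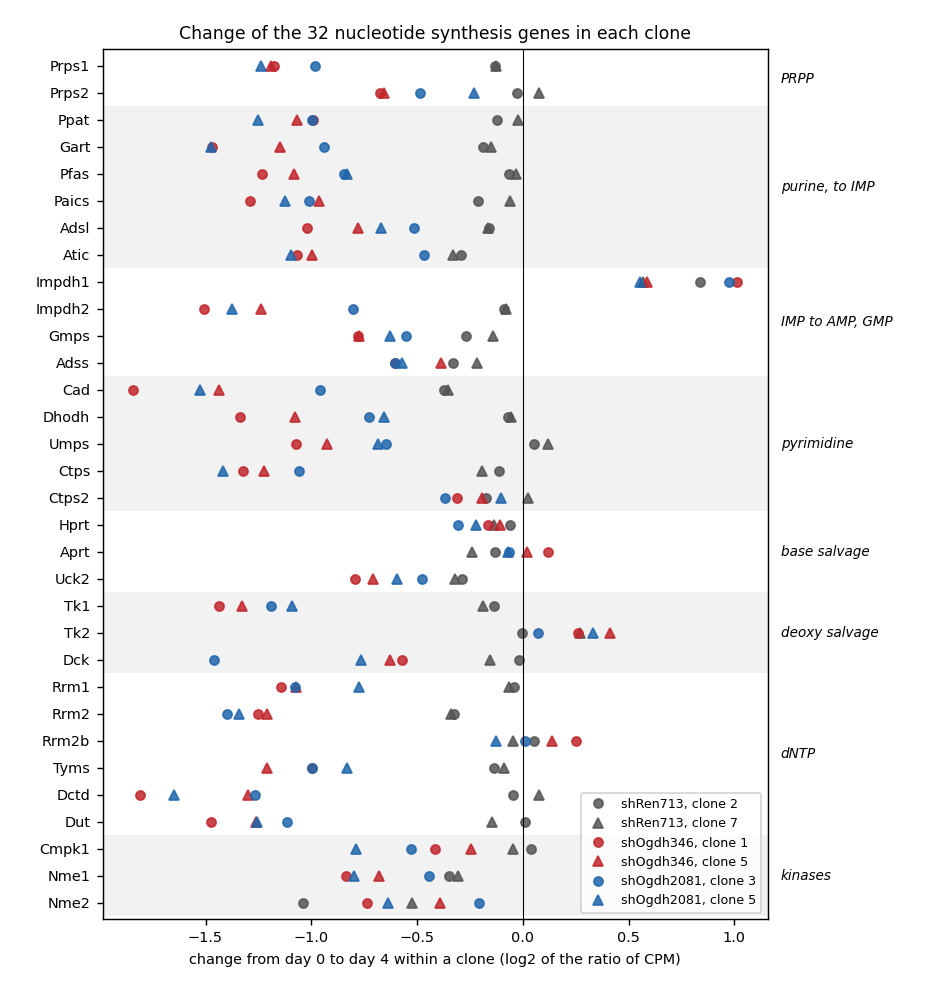
Change from day 0 to day 4 (log2 of the ratio of CPM, x axis) of each of the 32 genes (rows, grouped by step) in each of the 6 clones, with circles and triangles for the 2 clones of a hairpin. The control clones sit near 0 for most genes, the Ogdh clones lie between -0.5 and -1.8 for most genes of the purine, pyrimidine and deoxynucleotide steps, and Impdh1 lies right of 0 in all 6.

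PRPP synthetase 1, encoded by Prps1 (ENSMUSG00000031432, chrX:140456613-140476140, plus strand, GRCm38), makes the activated ribose that both routes need. At day 4 it stood at 86.7, 85.7, 97.0 and 88.8 CPM in the control, at 42.7, 40.6, 47.9 and 43.3 CPM with shOgdh346 and at 54.1, 54.2, 45.7 and 41.0 CPM with shOgdh2081. All 8 Ogdh libraries lay below all 4 control libraries, while at day 0 the groups overlapped, between 85.2 and 113 CPM. This gave a net change of -1.02 ± 0.10 (SE; edgeR adjusted p = 0.000166). Its relative Prps2 fell by 0.54 ± 0.11 (edgeR adjusted p = 0.00414). Prps2 stood at 40.1 to 46.1 CPM with shOgdh346 and at 51.8 to 57.3 CPM with shOgdh2081 at day 4, against 59.5 to 68.2 CPM in the control, so that its groups did not overlap either. Of the 76-base windows of Prps1, 4.97% also occur in Prps1l3, a copy with 9753 counts in all libraries against 19690 for Prps1, and how the authors counted such reads is not given in the sources used here.

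The 6 enzymes from PRPP to IMP are few in number because several carry more than 1 activity. Ppat, the amidotransferase of the committed first step (ENSMUSG00000029246, chr5:76913249-76951578, minus strand), stood at 109, 104, 115 and 111 CPM in the day 4 control. With shOgdh346 it stood at 56.4, 55.4, 57.2 and 54.6 CPM and with shOgdh2081 at 62.4, 58.4, 44.9 and 53.9 CPM. Day 4 levels in the Ogdh clones were 47.4% of those at day 0, and 95.1% in the control clones. At day 0 all 12 libraries lay between 111 and 126 CPM, so the groups were alike in level before doxycycline and apart after it. The net change of Ppat was -1.0 ± 0.10 (SE; edgeR adjusted p = 0.000190).

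Paics joins the carboxylase step and the step that adds aspartate in 1 protein and is the neighbour of Ppat on the other strand (ENSMUSG00000029247, chr5:76951307-76967509, plus strand). The annotated transcripts of Ppat and Paics overlap head to head by 272 bases, which hold 6.15% of the exon bases of Ppat and 8.67% of those of Paics, so reads from that stretch cannot be assigned if the counting did not use strand. Paics stood at 299, 291, 301 and 291 CPM in the day 4 control, at 147, 134, 163 and 148 CPM with shOgdh346 and at 167, 159, 150 and 153 CPM with shOgdh2081. The groups did not overlap. Its net change was -0.96 ± 0.11 (SE; edgeR adjusted p = 0.000377).

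Gart carries the synthetase and formyl transfer steps near the start of the ring (ENSMUSG00000022962, chr16:91621186-91646952, minus strand). It stood at 207, 200, 231 and 234 CPM in the day 4 control, at 94.2, 102, 114 and 113 CPM with shOgdh346 and at 130, 133, 84.4 and 92.8 CPM with shOgdh2081. Clone 5 of shOgdh2081 was lower than clone 3, and both were below every control library. Beyond the control, the change was -1.09 ± 0.15 (SE; edgeR adjusted p = 0.000984). An antisense gene, Gm15964, overlaps 19.7% of the exon bases of Gart and had 2342 counts in all libraries against 48829 for Gart.

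Pfas, the amidotransferase of the fourth step, fell with a net change of -0.95 ± 0.09 (edgeR adjusted p = 0.000138), from 127 to 142 CPM in the control libraries at day 4 to 57.2 to 66.2 CPM with shOgdh346 and 68.8 to 81.6 CPM with shOgdh2081. The last enzymes of the route had smaller values. Adsl, the lyase that also serves AMP synthesis, had a net change of -0.59 ± 0.10 (edgeR adjusted p = 0.00219), and its day 4 libraries did not overlap, at 66.4 to 97.7 CPM against 113 to 129 CPM. Atic, which closes the purine ring with a folate-bound formyl group, had a net change of -0.59 ± 0.15 (edgeR adjusted p = 0.0162). At day 4 Atic stood at 187, 187, 226 and 219 CPM in the control, at 123, 130, 147 and 146 CPM with shOgdh346 and at 189, 189, 124 and 125 CPM with shOgdh2081. Clone 3 of shOgdh2081 thus lay within the control's range and the other Ogdh clones below it. Without control clone 2 or control clone 7 the call for Atic was lost (edgeR adjusted p = 0.11 and 0.0959).

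IMP is a branch point. Impdh2 and Impdh1 encode the isoforms of IMP dehydrogenase, which commit IMP to GMP, and they moved in different ways. Impdh2, the isoform of dividing cells (ENSMUSG00000062867, chr9:108560286-108565584, plus strand), stood at 214, 222, 216 and 228 CPM in the day 4 control. It stood at 80.8, 86.0, 97.7 and 90.9 CPM with shOgdh346 and at 119, 120, 93.1 and 94.0 CPM with shOgdh2081, all below the control. The net change was -1.14 ± 0.15 (SE; edgeR adjusted p = 0.000818). Of its 76-base windows, 69.2% also occur in the processed copy Impdh2-ps, which had 566 counts in all libraries against 45253 for Impdh2, so its absolute level is uncertain.

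Impdh1 (ENSMUSG00000003500, chr6:29200434-29216364, minus strand) differed between clones of the same hairpin. At day 0 it stood at 55.3, 42.9, 30.8 and 21.8 CPM in the control, at 8.77, 7.67, 40.3 and 31.7 CPM with shOgdh346 and at 36.4, 30.6, 60.3 and 43.7 CPM with shOgdh2081. At day 4 the values were 85.4, 89.1, 40.0 and 41.5 CPM in the control, 15.5, 18.2, 51.8 and 55.9 CPM with shOgdh346 and 66.4, 64.2, 77.3 and 74.0 CPM with shOgdh2081. Impdh1 rose in all 3 hairpins, the control included. The change was 0.71 ± 0.13 with shRen713 (edgeR adjusted p = 0.0186), 0.78 ± 0.14 with shOgdh346 (adjusted p = 0.00135) and 0.76 ± 0.13 with shOgdh2081 (adjusted p = 0.00122). This gave a net change of 0.06 ± 0.16 (edgeR adjusted p = 0.807). Without control clone 2 or 7, the control's rise did not pass the threshold.

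The other branch enzymes gave smaller values. Gmps, which aminates XMP to GMP, fell with a net change of -0.48 ± 0.09 (edgeR adjusted p = 0.00286), from 143 to 161 CPM in the day 4 control to 95.7 to 115 CPM with shOgdh346 and 123 to 129 CPM with shOgdh2081. Without control clone 7 its edgeR adjusted p was 0.0789. Adss, which starts the AMP branch, had a net change of -0.27 ± 0.10 (edgeR adjusted p = 0.0585) and did not pass. Leaving out shOgdh346 clone 5, or any of 4 single libraries, took Adss past the threshold, with edgeR adjusted p between 0.0249 and 0.0463.

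Cad, the enzyme that carries the first 3 activities of pyrimidine synthesis (ENSMUSG00000013629, chr5:31054780-31078479, plus strand), stood at 280, 286, 272 and 290 CPM in the day 4 control. With shOgdh346 it stood at 82.2, 93.3, 123 and 138 CPM and with shOgdh2081 at 164, 185, 116 and 125 CPM. Day 4 levels were 37.8% of day 0 in the Ogdh clones and 77.7% in the control clones, where the change of -0.36 ± 0.14 did not pass the test (edgeR adjusted p = 0.156). Beyond the control, the change was -1.07 ± 0.17 (SE; edgeR adjusted p = 0.00196).

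Dhodh, the mitochondrial dehydrogenase that passes its electrons to ubiquinone (ENSMUSG00000031730, chr8:109591343-109608673, minus strand), was the least abundant pyrimidine enzyme per base of transcript. At day 4 it stood at 26, 30.1, 32.7 and 31.0 CPM in the control, at 13.6, 15.7, 16.7 and 17.6 CPM with shOgdh346 and at 20.3, 21.4, 20.7 and 19.9 CPM with shOgdh2081. The 3 groups did not overlap, and shOgdh346 was the lowest. The net change was -0.89 ± 0.13 (SE; edgeR adjusted p = 0.000886).

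Umps, which completes UMP (ENSMUSG00000022814, chr16:33954782-33967038, minus strand), stood at 154 to 173 CPM in the day 4 control, at 69.8 to 81.1 CPM with shOgdh346 and at 90.9 to 101 CPM with shOgdh2081. Its net change was -0.92 ± 0.09 (SE; edgeR adjusted p = 0.000158), with no overlap of the groups. CTP synthase is encoded by Ctps and Ctps2, and only the first passed the test. Ctps (ENSMUSG00000028633, chr4:120539868-120570276, minus strand) stood at 125, 123, 124 and 118 CPM in the day 4 control, at 52.9, 52.2, 59.4 and 60.8 CPM with shOgdh346 and at 69.9, 66.0, 49.9 and 52.1 CPM with shOgdh2081. Its net change was -1.10 ± 0.11 (SE; edgeR adjusted p = 0.000201). Ctps2 stood at 87.3 to 101 CPM in the control and at 69.6 to 90.9 CPM in the Ogdh libraries, which overlap, with a net change of -0.17 ± 0.11 (edgeR adjusted p = 0.258).

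**Figure D2:**
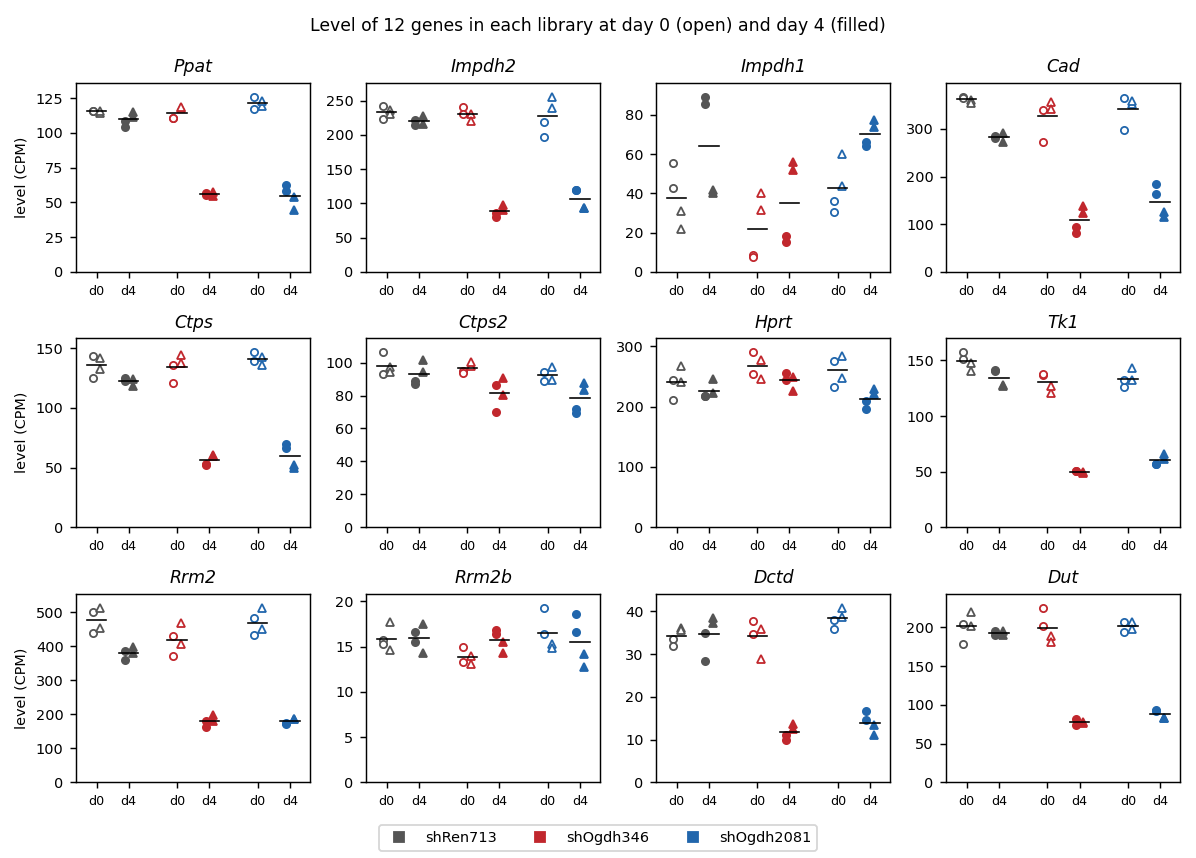
Level (CPM, y axis from 0) of 12 of the genes in each library, by hairpin, at day 0 (d0, open) and day 4 (d4, filled), with circles and triangles for the 2 clones and a line at the mean of the 4 libraries. Ppat, Impdh2, Cad, Ctps, Tk1, Rrm2, Dctd and Dut show both Ogdh hairpins below the control at day 4, whereas Ctps2, Hprt and Rrm2b overlap and Impdh1 differs between clones.

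Salvage of bases rested on abundant transcripts with net changes near 0 in both purine enzymes. Per length of transcript (RPKM, on the deposited length), Hprt, which recovers hypoxanthine and guanine, had the highest day 0 level of the 32 genes at 199, followed by Rrm2 at 165 and by Aprt, which recovers adenine, at 157. This order depends on the length used. The longest coding transcript of Aprt has 849 bases against a deposited 1615, and that of Rrm2 2193 against 2771. For Hprt both are 1289 bases. Hprt stood at 217, 218, 246 and 223 CPM in the day 4 control, at 255, 245, 249 and 226 CPM with shOgdh346 and at 209, 196, 228 and 221 CPM with shOgdh2081. The groups overlapped, and the net change was -0.10 ± 0.09 (edgeR adjusted p = 0.384). Aprt stood at 202, 223, 234 and 248 CPM in the control and at 227 to 282 CPM in the Ogdh libraries, with a net change of 0.19 ± 0.09 (edgeR adjusted p = 0.130).

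Uck2, the kinase that salvages uridine and cytidine, did fall. It stood at 237, 233, 275 and 273 CPM in the day 4 control, at 205, 206, 196 and 188 CPM with shOgdh346 and at 231, 222, 204 and 210 CPM with shOgdh2081. This gave a net change of -0.34 ± 0.09 (edgeR adjusted p = 0.0165), and the control itself fell by 0.30 ± 0.07 (edgeR adjusted p = 0.0426). The net call was lost without control clone 2 or control clone 7 (edgeR adjusted p = 0.181 and 0.145).

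Among the deoxynucleoside kinases the cytosolic and the mitochondrial thymidine kinase parted. Tk1, the cytosolic enzyme of S phase (ENSMUSG00000025574, chr11:117815526-117826092, minus strand), stood at 142, 140, 128 and 127 CPM in the day 4 control. It stood at 50.5, 50.9, 49.7 and 49.0 CPM with shOgdh346 and at 56.9, 56.7, 65.6 and 61.1 CPM with shOgdh2081. Beyond the control, the change was -1.10 ± 0.09 (SE; edgeR adjusted p = 7.56e-05), the smallest adjusted p of the 32 genes. Tk2, the mitochondrial enzyme, stood at 17.7 to 27 CPM in the control and at 17.6 to 28.5 CPM in the Ogdh libraries, with a net change of 0.13 ± 0.15 (edgeR adjusted p = 0.528).

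Dck, which phosphorylates deoxycytidine and activates cytarabine, was lower with shOgdh2081 than with shOgdh346 in every day 4 library. At day 4 it stood at 84.0, 90.1, 80.0 and 80.4 CPM in the control, at 56.3, 59.3, 54.4 and 58.6 CPM with shOgdh346 and at 34.6, 29.4, 46.2 and 47.2 CPM with shOgdh2081. Both Ogdh hairpins lay below the control in every library. The mean net change was -0.77 ± 0.17 (SE; edgeR adjusted p = 0.00891). Without control clone 2 its edgeR adjusted p was 0.0746.

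The deoxynucleotide enzymes held the 2 largest falls, those of Dctd and Dut. Rrm1, the large subunit of ribonucleotide reductase (ENSMUSG00000030978, chr7:102441695-102469771, plus strand), stood at 692, 673, 617 and 579 CPM in the day 4 control, at 288, 270, 294 and 292 CPM with shOgdh346 and at 286, 273, 438 and 408 CPM with shOgdh2081. Rrm2, the small subunit made in S phase (ENSMUSG00000020649, chr12:24708241-24714146, plus strand), stood at 361, 387, 381 and 398 CPM in the control, at 163, 181, 182 and 198 CPM with shOgdh346 and at 173, 175, 187 and 186 CPM with shOgdh2081. Both subunits were below the control in every Ogdh library, and in Rrm1 clone 5 of shOgdh2081 was the highest of the Ogdh clones. The net change was -0.96 ± 0.11 for Rrm1 (SE; edgeR adjusted p = 0.000350) and -0.97 ± 0.09 for Rrm2 (edgeR adjusted p = 0.000136). Rrm2 also fell in the control, by 0.33 ± 0.07 (edgeR adjusted p = 0.0303).

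Rrm2b, the alternative small subunit that p53 induces and that supplies resting cells, gave other values. It stood at 16.6, 15.5, 17.5 and 14.3 CPM in the day 4 control, at 16.8, 16.4, 14.3 and 15.6 CPM with shOgdh346 and at 18.6, 16.6, 12.7 and 14.2 CPM with shOgdh2081. The groups overlapped throughout, and the net change was 0.07 ± 0.15 (edgeR adjusted p = 0.742). With its long transcript, Rrm2b had a day 0 level of 1.68 RPKM.

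Dctd, the deaminase that makes dUMP from dCMP for thymidylate synthase (ENSMUSG00000031562, chr8:48099092-48153233, plus strand), fell most of the 32 genes. It stood at 28.5, 34.9, 37.3 and 38.4 CPM in the day 4 control, at 11.2, 9.95, 13.6 and 12.6 CPM with shOgdh346 and at 14.7, 16.6, 11.2 and 13.5 CPM with shOgdh2081. Day 4 levels were 35.3% of day 0 in the Ogdh clones and 101% in the control clones. This gave a net change of -1.52 ± 0.17 (SE; edgeR adjusted p = 0.000312).

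Dut, which removes dUTP and yields dUMP (ENSMUSG00000027203, chr2:125247190-125258608, plus strand), stood at 195, 190, 189 and 195 CPM in the day 4 control, at 74.4, 81.6, 76.0 and 77.6 CPM with shOgdh346 and at 93.1, 92.1, 83.5 and 82.5 CPM with shOgdh2081. Tyms, thymidylate synthase itself (ENSMUSG00000025747, chr5:30058202-30073617, minus strand), stood at 108, 116, 98.1 and 94.3 CPM in the control, at 52.0, 52.6, 47.9 and 40.2 CPM with shOgdh346 and at 45.2, 44.2, 59.6 and 58.1 CPM with shOgdh2081. Neither gene overlapped between control and Ogdh libraries. Beyond the control, the change was -1.21 ± 0.10 for Dut (SE; edgeR adjusted p = 9.37e-05) and -0.89 ± 0.10 for Tyms (edgeR adjusted p = 0.000306). Dctd, Dut and Tyms, which make and use dUMP, thus all fell.

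The nucleotide kinases had smaller values. Cmpk1, which phosphorylates UMP and CMP, stood at 96.9, 112, 107 and 113 CPM in the day 4 control, at 94.6, 87.7, 102 and 97.1 CPM with shOgdh346 and at 83.1, 81.1, 60.4 and 62.0 CPM with shOgdh2081. The shOgdh346 libraries overlapped with the control and the shOgdh2081 libraries did not. The mean net change was -0.49 ± 0.11 (edgeR adjusted p = 0.00656), and it was lost without control clone 2 or control clone 7 (edgeR adjusted p = 0.0888 and 0.0550).

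Nme1, a nucleoside diphosphate kinase, stood at 90.7 to 96.4 CPM in the day 4 control, at 63.6 to 73.7 CPM with shOgdh346 and at 62.6 to 89.5 CPM with shOgdh2081. Its net change was -0.36 ± 0.11 (edgeR adjusted p = 0.0345). That call was lost in 10 of 40 other fits, the most of the 24, with edgeR adjusted p of 0.160, 0.207 and 0.0701 without control clone 2, control clone 7 and shOgdh346 clone 1. It was 0.0533, 0.0537, 0.0553 and 0.0516 without day 0 replicate 2 of control clone 2, day 0 replicate 2 of control clone 7, day 0 replicate 1 of shOgdh2081 clone 3 and day 4 replicate 2 of the same clone. Nme2 had only 207 counts in the 24 libraries, and 48.9% of its exon bases also lie in Gm20390, the annotated read-through of Nme1 and Nme2, which is listed at 0 counts. Its net change was 0.30 ± 0.46 (edgeR adjusted p = 0.632), wider in error than in size.

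**Figure D3:**
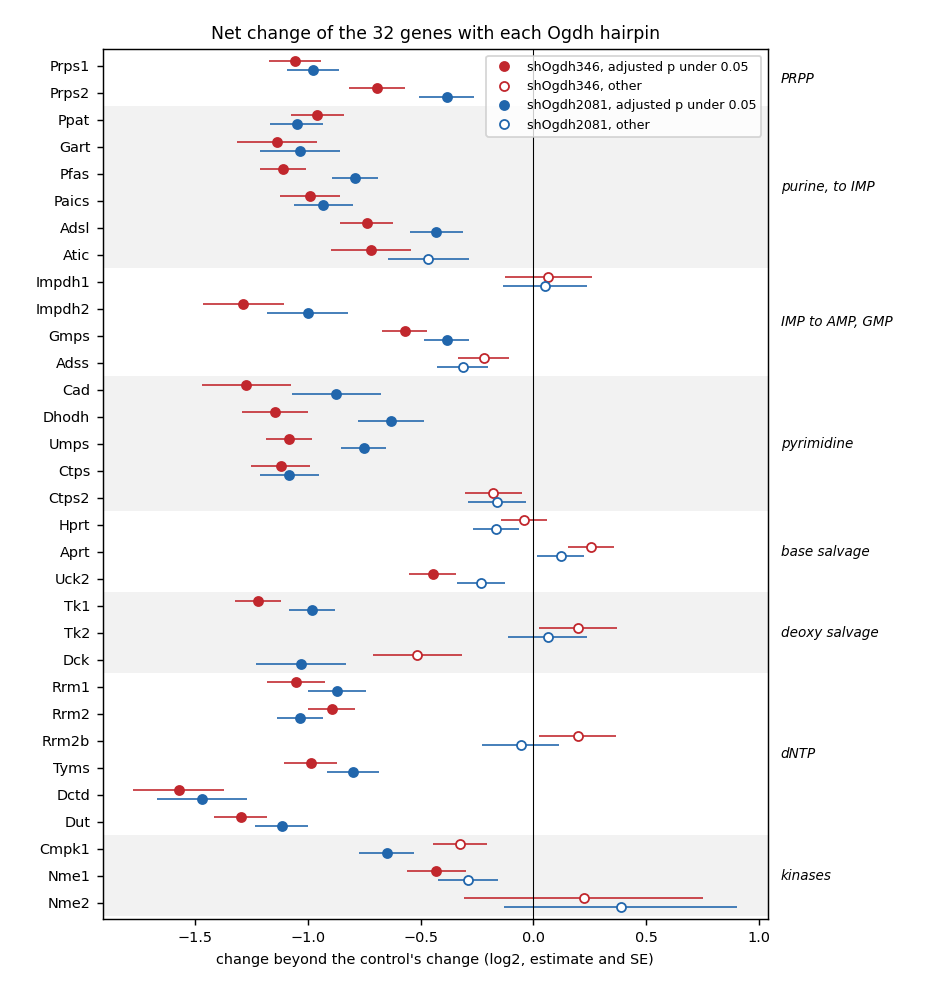
Net change (log2 change from day 0 to day 4 minus that of the control, x axis) of each gene with shOgdh346 (red) and shOgdh2081 (blue), with bars for 1 SE and filled points for edgeR adjusted p under 0.05. Dctd lies furthest left with both hairpins, and the points of Impdh1, Hprt, Aprt, Tk2, Rrm2b and Nme2 are all open.

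The list holds pairs of genes whose products do the same task, and in the 5 pairs compared the members changed unequally. Nme1 and Nme2 were not compared in this way. From day 0 to day 4 the log2 ratio of Rrm2 to Rrm2b changed by -0.33 in the control clones and by -1.37 in the Ogdh clones (means of 2 and 4 clones), a difference of -1.03. The corresponding differences were -0.94 for Ctps to Ctps2, -0.48 for Prps1 to Prps2, -1.23 for Impdh2 to Impdh1 and -1.24 for Tk1 to Tk2. In all 5 pairs every Ogdh clone lay below both control clones. The two-sided exact permutation test over clones gave p = 0.0667 for each of the 5 comparisons, and 0.0667 after Benjamini-Hochberg adjustment, the smallest p this design allows. The Tk1 and Tk2 pair was chosen after its values were seen. A ratio shows unequal change and not that either gene held still.

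**Figure D4:**
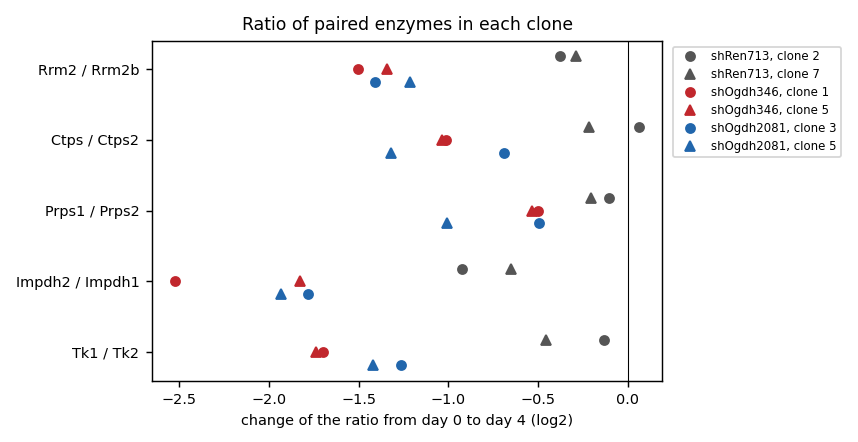
Change from day 0 to day 4 of the log2 ratio of paired enzymes (x axis) in each clone of the 3 hairpins. In all 5 pairs the 4 Ogdh clones lie left of both control clones, and the Impdh2 to Impdh1 ratio also fell in the control clones, by 0.93 and 0.65 on the log2 scale.

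No member differed between the Ogdh hairpins in its net change by edgeR's adjusted p (0 lower and 0 higher with shOgdh346, against 0.0491% and 0.0561% of all genes). At an unadjusted p under 0.05, 6 were lower with shOgdh346 (Prps2, Pfas, Adsl, Dhodh, Umps and Tk1) and 2 were higher (Dck and Cmpk1), and DESeq2 called 0 in either direction. Dhodh had the lowest value, -0.52 ± 0.15 (edgeR adjusted p = 0.294), from net changes of -1.15 with shOgdh346 and -0.63 with shOgdh2081. Dck had the highest, 0.52 ± 0.20 (edgeR adjusted p = 0.449), from net changes of -0.52 and -1.03. With 24 separate libraries and the replicate number as a block, 6 members were called lower and 3 higher, a fit that counts libraries of 1 clone as independent. The shares of all genes above are not from that fit. Its own shares for this comparison are not reported here, so these counts cannot be set against them.

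Without subtraction of the control, most members fell with either Ogdh hairpin. With shOgdh346, 26 members fell and 2 rose (Impdh1 and Tk2), where 29.3% of all genes fell and 30.2% rose. With shOgdh2081, 26 fell and 1 rose (Impdh1), against 25.9% and 27.5% of all genes. In the control, 2 fell (Uck2 and Rrm2) and 1 rose (Impdh1), against 2.44% and 4.44%. The control count depended on single libraries: 0 members were called lower without control clone 2, without control clone 7, or without day 0 replicate 1 of either clone, and 4 without day 0 replicate 2 of control clone 2 or without either shOgdh2081 clone. Without 1 of 5 day 0 libraries of the Ogdh clones, or day 4 replicate 2 of shOgdh346 clone 1, it was 1. Without either control clone 0 members rose in the control. With shOgdh346 the count of rises was 1 without control clone 2 or 7, without either shOgdh346 clone, and without day 0 replicate 1 of control clone 7, of shOgdh346 clone 1 or of shOgdh346 clone 5, day 0 replicate 2 of shOgdh2081 clone 3 or day 4 replicate 2 of shOgdh346 clone 1.

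At day 4 the level itself, with no subtraction of day 0, was lower with the Ogdh hairpins for 24 of 32 members and higher for 0 (21.2% of all genes were lower). No member was higher at an unadjusted p under 0.05, and DESeq2 called 0 higher. In 22 of the 32 every Ogdh library lay below every control library, which held for 20.1% of all genes. At day 0 edgeR called 0 members lower and 0 higher, as it did for 0% of all genes in either direction. At an unadjusted p under 0.05, 1 member was lower (Tk1) and 0 higher, and DESeq2 called 0. The day 4 level shares its samples with the net change and is no separate support for it.

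The replicate number moved with the members' levels at day 0. In the 12 day 0 libraries, replicate 2 was lower than replicate 1 of the same clone for 12 members and higher for 2, where 22% of all 11684 genes tested there were lower and 21.6% higher. Among these 14 called members Impdh1 had the largest difference, -0.38; Nme2, which was not called, stood at -0.40 ± 0.26 (edgeR adjusted p = 0.213). Uck2 differed by -0.21, Hprt by -0.20 and Rrm2 by -0.19, and Umps (0.20) and Dck (0.14) were the 2 that were higher. These differences were smaller than most net changes, and each clone had both replicates at day 0. With day 0 replicate 1 alone, and likewise with day 0 replicate 2 alone, 24 members fell in the mean net change. What the replicate number stands for is not given in the labels.

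**Figure D5:**
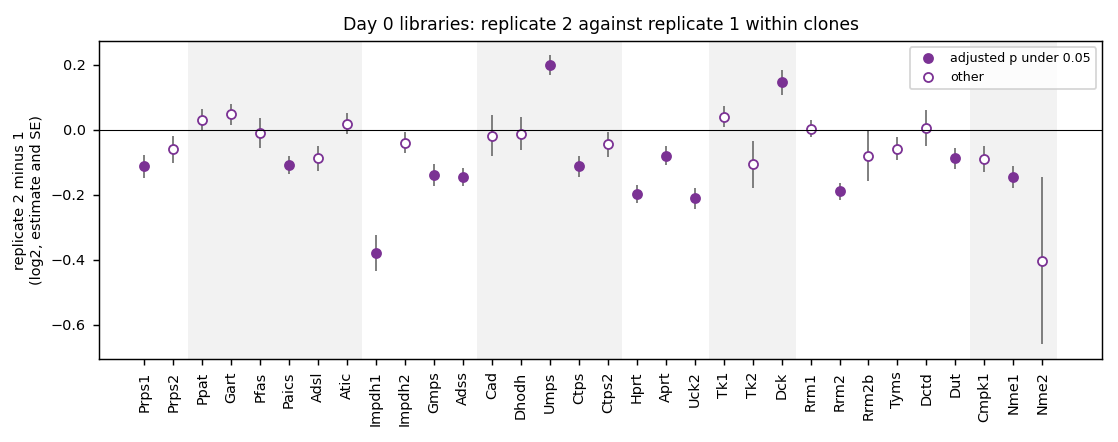
Difference between replicate 2 and replicate 1 of the same clone at day 0 (log2, y axis, with bars for 1 SE) for each of the 32 genes, with filled points for edgeR adjusted p under 0.05. Impdh1 lies lowest of the called genes at -0.38, and Umps and Dck are the 2 called genes above 0.

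Other genes of nucleotide metabolism, taken from lists by function, moved in a mixed way, except for the folate enzymes. Over all genes tested 19.8% fell and 17.9% rose, the shares to set beside the counts of each list. Of 8 enzymes that supply folate-bound carbon, 7 fell and 0 rose, with a median net change of -0.98. Shmt2, the mitochondrial serine hydroxymethyltransferase, fell by 1.63 ± 0.14 (edgeR adjusted p = 9.79e-05). Mthfd2 fell by 1.24 ± 0.12 and Shmt1 by 0.96 ± 0.09.

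Of 18 tested genes of breakdown and dNTP hydrolysis, 4 fell and 5 rose, where 19.8% of all genes fell and 17.9% rose. Dnph1, a hydrolase of deoxynucleotides, fell by 1.38 ± 0.16 (edgeR adjusted p = 0.000344), and Itpa, Nudt1 and Nt5c3b fell by 0.53, 0.58 and 0.59. Xdh, which oxidises xanthine to urate, rose by 1.32 ± 0.15 (edgeR adjusted p = 0.000276), and Nt5e, the surface enzyme that splits AMP, rose by 1.5 ± 0.19 (edgeR adjusted p = 0.000797). Gda rose by 0.66 and Ampd3 by 1.44. Samhd1, which cleaves dNTPs, rose by 0.48 ± 0.10 (edgeR adjusted p = 0.00614), and was named after its value was seen. With shOgdh2081 alone Gda, Samhd1 and Nt5c3b did not pass (edgeR adjusted p = 0.206, 0.0714 and 0.211). Ampd3 also rose in the control (0.99 ± 0.25, edgeR adjusted p = 0.0468), and its day 4 level was not called (edgeR adjusted p = 0.107). That of Nt5c3b was not called either (-0.24 ± 1.04, edgeR adjusted p = 0.878).

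Of 11 other nucleotide kinases tested, Dtymk, the thymidylate kinase, and Nme7 fell, by 0.72 and 0.63, and Ak4 had a mean net change of 3.53 ± 0.39 (edgeR adjusted p = 0.000298). That of Ak4 was 5.50 ± 0.62 with shOgdh346 and 1.55 ± 0.31 with shOgdh2081, and the difference between the hairpins did not pass (3.95 ± 0.65, edgeR adjusted p = 0.0772). Ak4 also differed between the day 0 replicates (-3.70 ± 0.50, edgeR adjusted p = 0.000282), and its day 4 level was not called (0.57 ± 1.04, adjusted p = 0.693). Of 11 other salvage and PRPP genes tested 0 fell by edgeR, and Uckl1 rose by 0.48, besides Upp1, which averaged only 1.5 CPM. Of 8 carriers of nucleosides and nucleotides 3 fell and 0 rose by edgeR, against 19.8% and 17.9% of all genes. The equilibrative nucleoside transporters Slc29a2 (-0.99) and Slc29a1 (-0.45) were among those that fell. With shOgdh2081 alone Slc29a1 did not pass (-0.26 ± 0.13, edgeR adjusted p = 0.170).

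Markers of proliferation fell, as most members did, and most mature neutrophil markers rose. Over all genes tested 19.8% fell and 17.9% rose. Of 17 replication and cell cycle genes such as Mcm5, Ccna2 and Mki67, 17 fell, with a median net change of -1.0, and their summed level was 2840 to 3877 CPM in the Ogdh libraries at day 4 against 6087 to 6645 CPM in the control. Of 10 mature neutrophil markers 8 rose and 0 fell by edgeR, and their summed level went from 359 to 3103 CPM at day 0 to 6465 to 43480 CPM at day 4 in the Ogdh libraries, against 272 to 1327 CPM in the day 4 control. Of 6 monocyte and macrophage markers 3 rose, with a summed level of 334 to 1738 CPM in the Ogdh libraries at day 4 and 329 to 422 CPM in the control. Of 8 progenitor markers Kit, Cd34, Mpo and Elane had lower and Spi1 and Ptprc higher net changes by edgeR. For Mpo the net value of -2.46 holds a rise in the control of 1.39 ± 0.26 (edgeR adjusted p = 0.0281), a fall with shOgdh346 of -2.05 ± 0.27 (adjusted p = 0.000598) and a change of -0.09 ± 0.25 with shOgdh2081 that did not pass (adjusted p = 0.778). Summed T cell, B cell and erythroid markers stayed at or below 0.769, 1.13 and 1.97 CPM in all libraries. Of those lists 0, 1 and 1 genes passed the filter, and 1 of them passed the test, the erythroid factor Klf1, named after its value was seen. Its net change of 1.69 ± 0.47 (edgeR adjusted p = 0.0207) holds changes of -1.35 and -0.81 in the control clones, 0.21 and -0.19 in the shOgdh346 clones and 0.80 and 1.03 in the shOgdh2081 clones. The stromal markers Col1a2 and Dcn were at 0 throughout. The 2 stromal genes tested (Col1a1 and Pdgfrb) had higher mean net changes by edgeR. Pdgfrb changed by 1.22 and 1.16 in the shOgdh2081 clones, and by -0.24 and -0.04 in the shOgdh346 clones. In the control clones Pdgfrb changed by -0.32 and -0.04. Its change differed between the Ogdh hairpins (shOgdh346 minus shOgdh2081, -1.35 ± 0.17, edgeR adjusted p = 0.0309). The summed stromal level reached 73.2 CPM in the Ogdh libraries at day 4 and 22.9 CPM in the control. The part of any of these markers in the values of the nucleotide genes was not tested.

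The stretch of DNA around the start sites was searched for motifs because many members fell together. RefSeq gives windows from 250 bases before to 50 after the start (GRCm38.p6) for 29 of the 32 genes, 37 windows in all. The motifs, read on both strands, were the E-box CACGTG, which MYC and related factors bind, the E2F octamers TTTCCCGC, TTTGGCGC, TTTGCCGC and TTTCGCGC, the CCAAT box and the NRF1 motif. An E-box was in 6 of 37 member windows (16.2%), in 7.15% of all 32851 windows and in 9.87% of the windows of genes tested. It was in 6 of 26 windows of the members that fell and in 0 of 11 windows of the other members. The other motifs lay the same way, so this split is not particular to the E-box. The CCAAT box was in 10 of 26 and 1 of 11. The E2F octamer was in 2 of 26 and 0 of 11, and the NRF1 motif likewise in 2 of 26 and 0 of 11. These windows belong to 22 and 7 genes, some windows of a gene overlap, and the differences were not tested. Counted by gene, an E-box was in 5 of 29 members (17.2%) and in 11.7% of the genes tested. An E2F octamer was in 2 of 37 member windows (5.41%), against 2.26% and 3.86%. The CCAAT box was in 29.7% of member windows, against 37.4% of all windows and 38.0% of those of genes tested. The NRF1 motif was in 5.41% of member windows, above the 4.60% of all windows and below the 9.82% of those of genes tested.

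The matches are shown because they differ in place between genes of the same step. The pair Ppat and Paics, whose starts face each other, has octamers on one side and an E-box on the other. Each line gives the strand of its gene, 5′ to 3′, with the motif in capitals; in Ppat the octamer lies on the other strand and reads GCGGGAAA. For Ppat the motifs start 211 and 158 bases before the start site, at chr5:76951771-76951800 and chr5:76951718-76951747 (minus strand), in an annotated exon of Paics. For Paics the E-box starts 203 bases before it, at chr5:76951087-76951116 (plus strand), in an exon of Ppat. For Atic (chr1:71557137-71557166, plus strand) it starts 7 bases before the start site and for Impdh2 (chr9:108560314-108560343, plus strand) 110 bases before. For Tyms it starts 61 bases before, in a stretch outside any annotated gene (chr5:30073654-30073713, minus strand). For Prps2 the octamer starts 33 bases after the start site, in its own first exon (chrX:167382700-167382729, minus strand).
Ppat, first octamer: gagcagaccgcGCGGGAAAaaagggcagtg
Ppat, second octamer: aggatcagaggGCGGGAAAgggaggtgcaa
Paics: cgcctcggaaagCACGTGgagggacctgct
Atic: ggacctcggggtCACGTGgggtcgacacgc
Impdh2: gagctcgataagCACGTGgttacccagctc
Tyms: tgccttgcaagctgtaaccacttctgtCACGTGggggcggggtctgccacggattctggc
Prps2: cctgctgctgcgtTTTCCCGCttcaccagc

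Among these genes Impdh2 (-1.14), Ppat (-1.0), Paics (-0.96) and Tyms (-0.89) had net changes near or beyond the members' median, and Atic (-0.59) and Prps2 (-0.54) had smaller ones. Dctd and Dut, with the largest falls, had neither motif in their windows. Nme1 had an E-box in each of its 2 windows and a net change of -0.36. A match is a description of letters, and binding was not measured here.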

How the data were processed

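The authors deposited whole-number counts per Ensembl gene for 24 libraries. The build is mm10 (GRCm38) and the tools listed are featureCounts 1.6.3, STAR 2.6.1a, Trimmomatic 0.36 and FastQC 0.11.5, per the submitters' processing notes, which give them no role or order. The labels' protocols instead name a human build, another counter and RPKM, which the deposited values do not match. Neither strand use nor the handling of multi-mapping reads is stated in the sources used here.

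As the clone carries the hairpin, counts were added up over the 2 libraries per clone and day. The resulting 12 sums were filtered with filterByExpr (14249 genes kept), scaled with TMM and tested with edgeR 4.0.16 (R 4.3.3), robust quasi-likelihood, with a clone block and, per hairpin, a day 4 term (3 residual and a median of 6.11 prior degrees of freedom). The labels' clone numbers pair day 0 with day 4, and deviations of clones from their group means correlated across genes at 0.604 to 0.837. Levels within a day used 6 groups, in which each clone enters at both days, so these degrees of freedom are overstated. SEs are those implied by the test statistic. P-values, which were adjusted by the Benjamini-Hochberg method across every gene tested (threshold 0.05), describe the spread between 2 clones per hairpin. Day 0 replicate numbers were compared in the 12 day 0 libraries with the clone as a block. The replicate numbers pair the day 0 libraries of different clones, whose replicate differences correlated at 0.446 to 0.586 over 15 pairs of clones, and not those of day 4 (-0.015 to 0.151). The fitting script was tested on simulated data.

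Members, pathway lists, marker lists and tests were chosen with earlier results of these data known. Named genes are all 32 members, Ogdh and, in each other list, up to 4 that rose and 4 that fell with the smallest p, an adjusted p under 0.05 and at least 5 CPM. Some genes of these lists are not reported here. The deposited transcript length, which equals the union of exons in GENCODE M21 for 30 of 32 members, was used for RPKM only and understates genes with long unspliced models. Alternatives were RLE scaling, library size alone, other filters, DESeq2 1.42.0, other blocks, 24 libraries, 1 day 0 replicate, and leaving out each clone or library. Protein sequences were not used here.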

Additional observations from a re-analysis of the deposited data

Results flagged for a closer look

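Each of the 32 genes was checked in the 6 groups of 4 libraries for a library that stood far from the other 3, and 3 of 192 groups had one. The cut-off gives about 1 in 20 for 4 independent values. Each group holds 2 clones with 2 libraries each, so that rate need not hold here. Prps2 in day 4 replicate 1 of shOgdh346 clone 5 was at 46.1 CPM, above the other libraries of its group at 40.1 to 41.0 CPM. Adsl in day 0 replicate 2 of control clone 2 was at 113 CPM, below the others at 139 to 142 CPM. Nme2 in day 4 replicate 2 of shOgdh346 clone 5 was at 1.31 CPM, above the others at 0.385 to 0.519 CPM.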

How the results depend on the processing

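Over 40 other fits, the number of members that fell in the mean net change ranged from 18 (without control clone 7) to 25, their median from -0.92 to -0.78, and the share of all genes that fell from 7.30% (without control clone 7; 8.20% without control clone 2) to 30.8% (24 libraries with the replicate block). Of the 24 calls, 17 held in all 40 fits and 7 were lost in at least 1. Leaving out a control clone lost Prps2 (edgeR adjusted p = 0.0767 without clone 7) beside those named above, and leaves that arm with 1 clone, assumed to vary like the others. Nme1 was also lost with RLE scaling (edgeR adjusted p = 0.0509), with DESeq2 (adjusted p = 0.0913) and without the clone block (edgeR adjusted p = 0.0875). Without the clone block Atic, Uck2 and Cmpk1 were lost as well, and Adss was gained with library size alone and with both fits of 24 libraries.

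Paired analysis: with 24 libraries and the clone and replicate block, 1 member (Aprt, chosen after its value was seen) was higher in the mean net change, 1 with shOgdh346 and 1 at the day 4 level, 6 were lower and 3 higher between the hairpins, and 13 were lower and 2 higher in the control. With 24 libraries and the clone block alone, 1 member was higher in the mean net change, 1 with shOgdh346 and 1 at the day 4 level, 1 was lower and 2 were higher between the hairpins, and 9 were lower and 1 higher in the control. Both fits of 24 libraries count libraries of 1 clone as independent. With the replicate block 30.8% of all genes fell in the mean net change. The shares over all genes for the other comparisons of these fits are not reported here, so these counts cannot be set against them. With at least 1 CPM in 4 sums 1 was higher with shOgdh346. Without the clone as a block 20 members fell in the mean net change, 0 members were lower or higher in the control, 0 rose with either Ogdh hairpin from day 0 to day 4, and 4 were lower in replicate 2 at day 0. The control's count of falls was 0 with library size alone or day 0 replicate 2 alone and 4 with no filter or day 0 replicate 1 alone. Rises with shOgdh346 from day 0 to day 4 numbered 1 with library size alone, no filter, DESeq2 or day 0 replicate 2 alone. With library size alone 7 were lower and 4 higher in replicate 2 at day 0. Leaving out 1 clone or library gave 0 to 4 falls and 0 to 1 rises in the control and 1 to 2 rises with shOgdh346. The cause was not tested.

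Among the members' mean net changes only 3 near 0 changed sign. Impdh1 was at -0.024 with library size alone, -0.035 without the clone block and -0.024 with day 0 replicate 2 alone, and between -0.094 and 0.19 on leaving out 1 clone or library. Rrm2b was at -0.017 with library size alone and between -0.018 and 0.14, and Tk2 between -0.0097 and 0.26, on leaving 1 out. The precision of all values is limited by 2 clones per hairpin, and that of Nme2 by its 207 counts.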

Other observations

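Known regulators of these genes and targets of p53 moved too. Of 13 regulators tested 8 were lower and 1 was higher in the mean net change, against 19.8% and 17.9% of all genes. Myc, which drives many nucleotide genes in dividing cells, had a net change of -0.52 ± 0.12 (edgeR adjusted p = 0.00827). That value holds a rise in the control of 0.64 ± 0.10 (edgeR adjusted p = 0.00847) and changes of 0.14 ± 0.10 with shOgdh346 and 0.11 ± 0.10 with shOgdh2081 that did not pass. The day 4 level of Myc was not called (edgeR adjusted p = 0.0776), and Myc was higher in replicate 2 than in replicate 1 at day 0, by 0.96 ± 0.11 (edgeR adjusted p = 0.000959). Rbl1, a pocket protein that holds E2F factors, fell by 0.92 ± 0.13 (edgeR adjusted p = 0.000815), and E2f8, a repressor of the E2F family, fell by 0.85 ± 0.16 (edgeR adjusted p = 0.00356). E2f4 fell by 0.63 ± 0.12. Rb1, the retinoblastoma protein, rose by 0.56 ± 0.14 (edgeR adjusted p = 0.0145).

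Of 11 p53 targets other than Rrm2b 6 rose and 0 fell by edgeR, against 17.9% and 19.8% of all genes. Their median net change was 0.66. Mdm2, the ubiquitin ligase that limits p53, rose by 1.14 ± 0.14 (edgeR adjusted p = 0.000554) and Trp53inp1 by 1.99 ± 0.25 (edgeR adjusted p = 0.00126). Phlda3 rose by 1.11 ± 0.28 and Sesn2 by 0.58 ± 0.15. The day 4 level of Phlda3 was not called (0.54 ± 0.78, edgeR adjusted p = 0.618). Phlda3 was also higher in replicate 2 than in replicate 1 at day 0, by 0.68 ± 0.13 (edgeR adjusted p = 0.00021). Rrm2b, itself a p53 target, had a net change of 0.07 ± 0.15 (edgeR adjusted p = 0.742). Whether it differs from the other targets was not tested.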
